A study of Caenorhabditis elegans with 2 samples.

Results

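T-box genes encode transcription factors that share a DNA-binding domain, the T-box. The 8 genes described here are tbx-2, tbx-7, tbx-8, tbx-9, tbx-11, tbx-37, tbx-38 and mab-9, chosen by name out of 19973 protein-coding genes on the 6 nuclear chromosomes of Caenorhabditis elegans. All lie on chromosome III except mab-9, on chromosome II. Binding of HLH-1, the worm's MyoD-type muscle factor, was mapped around them by chromatin immunoprecipitation with sequencing (ChIP-seq) of an eGFP fusion. The worms were strain OP64, which carries the mutation unc-119(ed3) on chromosome III and the transgene wgIs64 for the tagged HLH-1. Whole embryos of mixed stages were used, with males and females pooled and age given as unknown, and 2 biological replicates form the only group. The labels name neither the promoter that drives the fusion nor its copy number. Since whole embryos were assayed, strong binding in few cells and weak binding in many cannot be told apart.

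In embryos, T-box factors divide up the mesoderm and epidermis among lineages, largely by switching on or holding back other regulators. Their best known DNA site is built from copies of a core close to AGGTGT. In C. elegans tbx-2 is needed for pharyngeal muscle from the anterior blastomere lineage. The neighbours tbx-8 and tbx-9 act redundantly in forming the epidermis and body wall muscle of the embryo. The paralogs tbx-37 and tbx-38 act redundantly in specifying mesoderm under the control of Notch signalling, and mab-9 specifies hindgut cells. HLH-1 itself binds E-boxes, sites of the form CANNTG.

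The peak lists used are on the ce11 build. A relaxed list for each replicate (28959 peaks in replicate 1 and 30000 in replicate 2) and one for the pooled reads (25321 peaks) hold real peaks mixed with background. The list past the authors' threshold of irreproducible discovery rate (called the IDR list) holds 3254 peaks. Of these, 2706 (83.2%) overlapped a listed peak in both replicates, so a place on the IDR list does not mean a peak in each replicate. The authors' score for a peak has no stated scale and was compared only within a list, with rank 1 as the strongest. No source used here states the read depth, and an absent peak means only that none was listed at this depth. The design has no second condition, and the genes are few and chosen by name, so their counts are descriptions with no test.

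Of the 8 T-box genes, 2 had an IDR summit in a window from 10 kb upstream of the start to 2 kb past the end. Such a summit was present for 34.3% of all protein-coding genes, so the share of 25% for the T-box genes was not above the background. The 2 genes were tbx-2, with 2 summits, and tbx-37, with 1. No IDR summit fell from 2000 bp upstream to 500 bp downstream of any of the 8 starts, a range in which 12.8% of all protein-coding genes had one. Together the windows, which overlap for tbx-8 and tbx-9, covered 106736 bp and held 3 IDR summits, or 2.81 per 100 kb, against 3.25 per 100 kb of the nuclear genome.

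**Figure D1:**
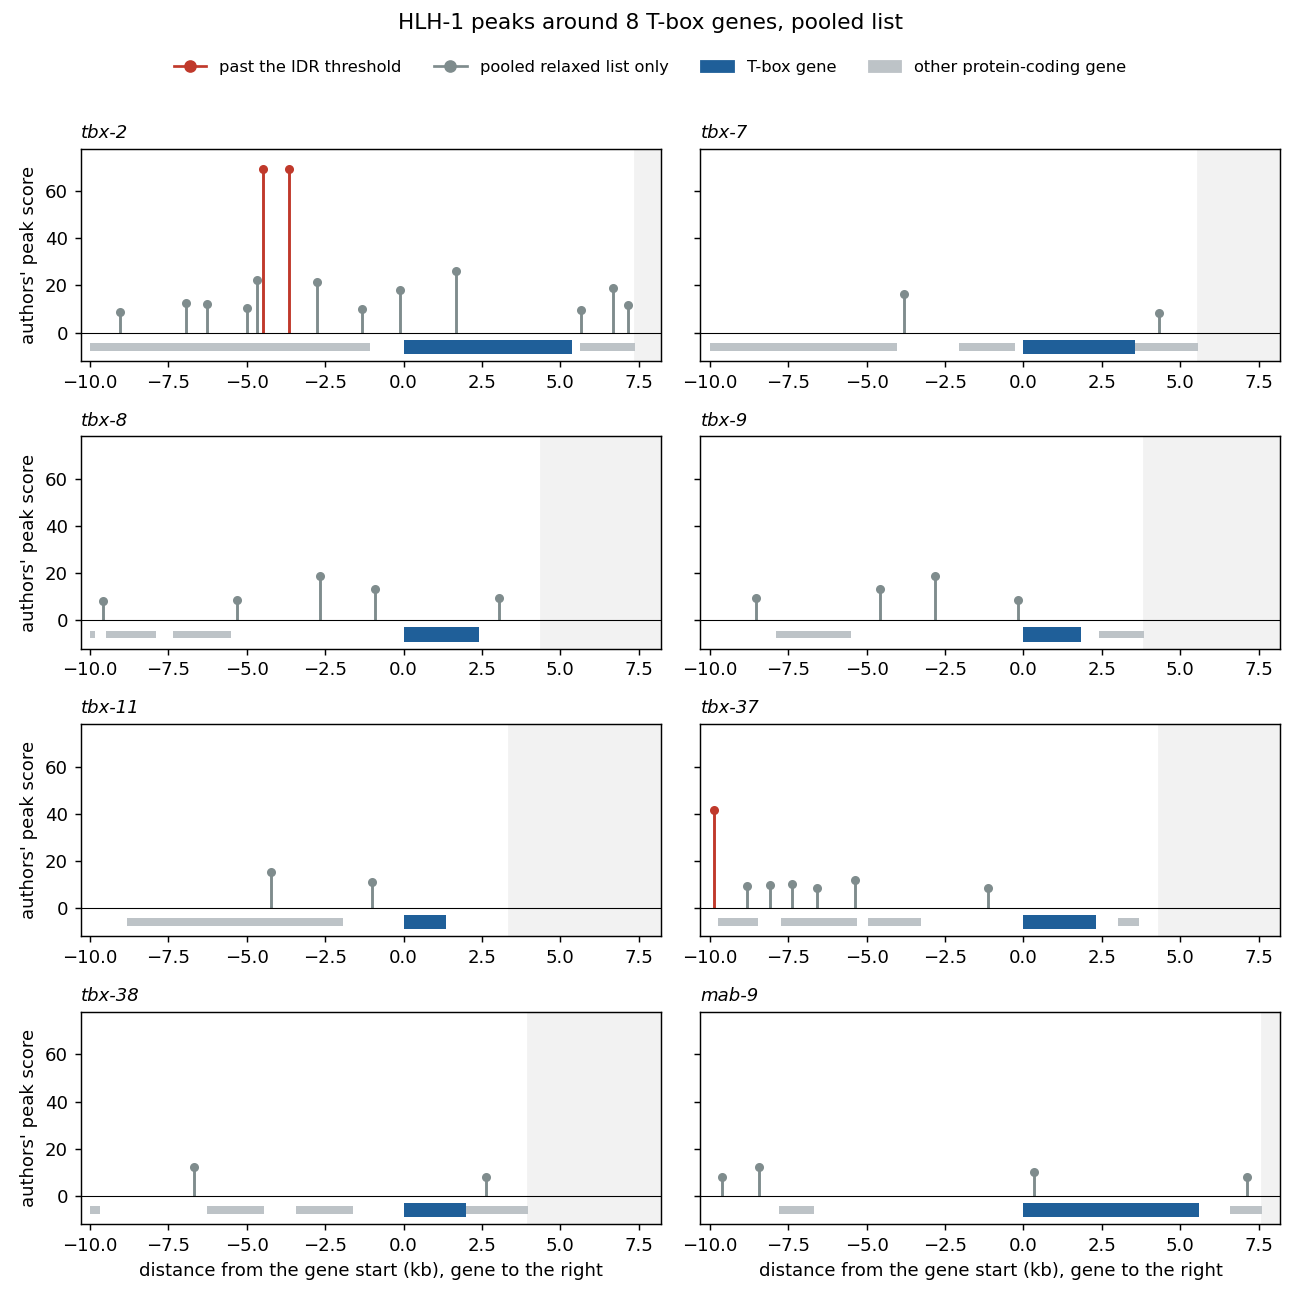
Peaks of the pooled list around the 8 T-box genes. The horizontal axis is the distance of the summit from the gene start in kb, with the gene running to the right (blue), other protein-coding genes in light grey, and the area beyond the window shaded. The vertical axis is the authors' score. Red peaks are past the IDR threshold: 2 upstream of tbx-2 and 1 at the edge of the tbx-37 window.

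The sequences at these 3 summits are shown because they are the only IDR peaks in the windows. Each is the summit base with 50 bases on each side, from the WBcel235 sequence (ce11), plus strand, with every E-box in capitals. They lie in the tbx-2 window (chrIII:5139894-5139994 and chrIII:5140718-5140818) and in the tbx-37 window (chrIII:11236932-11237032).

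tbx-2, summit 3648 bp upstream: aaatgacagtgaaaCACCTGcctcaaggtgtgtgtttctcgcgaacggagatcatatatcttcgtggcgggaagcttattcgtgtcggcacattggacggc
tbx-2, summit 4472 bp upstream: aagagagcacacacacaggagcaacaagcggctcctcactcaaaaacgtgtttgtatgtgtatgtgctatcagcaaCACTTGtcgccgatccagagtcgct
tbx-37, summit 9857 bp upstream: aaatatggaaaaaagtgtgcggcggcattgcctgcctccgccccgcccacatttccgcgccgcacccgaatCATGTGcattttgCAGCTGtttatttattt

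The 3 windows held 1, 1 and 2 E-boxes of any sequence, against a median of 1 over all IDR summit windows (5th to 95th percentile 0 to 3), and all lay over 20 bp from the summit. The nearer tbx-2 summit had a single one, CACCTG, whose nearest base lay 31 bp from the summit. The same window held the T-box core AGGTGT in both orientations, once as ACACCT overlapping the E-box (5139907 to 5139912) and once as AGGTGT (5139919 to 5139924), 20 bp from the summit. The farther tbx-2 summit had only CACTTG, the reverse complement of CAAGTG, at a distance of 26 bp. At the tbx-37 summit CAGCTG lay 34 bp away and CATGTG, the reverse complement of CACATG, 21 bp away. Read on both strands, CAGCTG was present in 15.2% of all 3254 IDR summit windows, CACCTG in 9.43%, CAAGTG in 9.34%, CACATG in 7.28% and AGGTGT in 6.42%. AGGTGT and CACCTG can share up to 5 bases, as they do here. The GC content of the 3 windows was 50.5%, 49.5% and 51.5%, against a median of 47.5% over all IDR summit windows, whose 5th and 95th percentiles were 38.6% and 58.4%.

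The gene tbx-2 (WBGene00006543, chrIII:5130923-5136296, minus strand) had the strongest peaks of the 8. Its IDR summits lay at 5139944 and 5140768, 824 bp apart, both with a score of 69.4 and with ranks of 1126 and 1125 among the 3254 IDR peaks, whose median score was 55.7. Both summits fall inside the neighbouring gene Y54H5A.2, which lies upstream on the same strand and ends 1062 bp before the tbx-2 start. They are in 1 intron of that gene (chrIII:5138281-5146014, 7734 bp). The nearest protein-coding start was nevertheless that of tbx-2, at 3648 and 4472 bp, while the start of Y54H5A.2 was 9634 and 8810 bp away. Apart from tbx-2 and Y54H5A.2, no protein-coding gene had these summits in its window.

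Both replicates listed both tbx-2 sites. For the summit 3648 bp upstream, replicate 1 had an overlapping peak with its summit 3728 bp upstream (score 11.4, rank 885) and replicate 2 one 3613 bp upstream (score 57.4, rank 1271). The other site had a score of 14.5 (rank 536) in replicate 1 and of 60.2 (rank 1170) in replicate 2. Its summit in replicate 2, 4474 bp upstream, was 2 bp from the pooled one. In replicate 1 the summit was 4663 bp upstream, 191 bp from that pooled summit and 12 bp from a weaker pooled peak 4675 bp upstream (score 22.5, rank 4878). The replicates thus listed the same region but not the same base for this site.

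Below the threshold, tbx-2 also had more relaxed peaks than the other members. Its window held 14 pooled summits, the 2 IDR summits included, a number reached by 193 of the 19973 protein-coding genes (0.966%). This was 0.806 summits per kb, against a median of 0.227 per kb over all protein-coding genes, and 0.611% of genes reached that density. Most of the 14 lay inside a neighbouring gene, either Y54H5A.2 or sax-2, which lies past the end of tbx-2. The strongest of the 12 below the threshold lay in a tbx-2 intron, 1660 bp downstream of the start (score 26.3, rank 4133), and was listed in both replicates (rank 5017 in replicate 1 and 4421 in replicate 2). A peak 117 bp upstream of the start (score 18.1, rank 6521) was likewise in both, at ranks 21699 and 5641. Another, 1338 bp upstream in a coding exon of Y54H5A.2, ranked only 16612 in the pooled list but overlapped the third strongest replicate 1 peak of the window (summit 1447 bp upstream, score 8.37, rank 1848), with no counterpart in replicate 2.

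**Figure D2:**
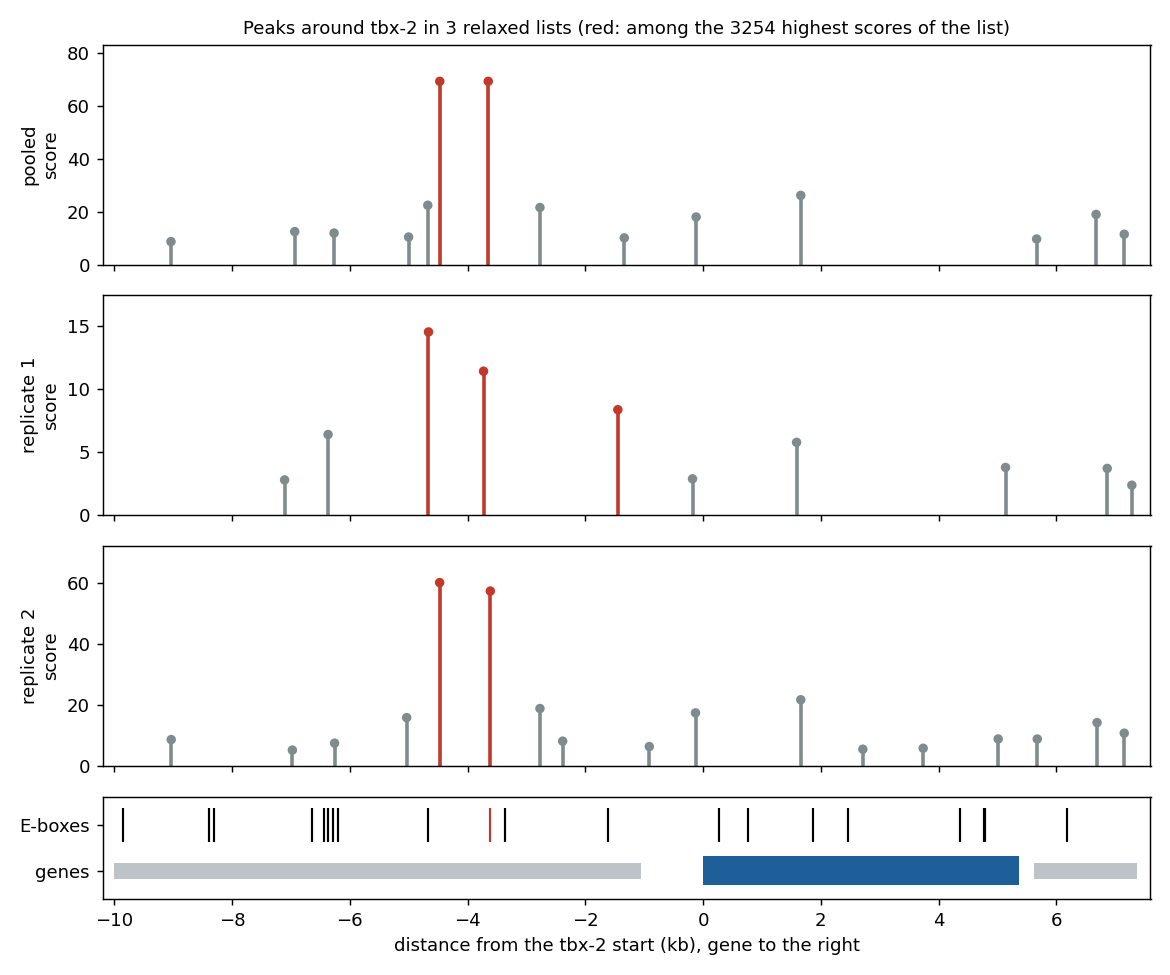
Peaks around tbx-2 in the pooled, replicate 1 and replicate 2 relaxed lists, by distance of the summit from the tbx-2 start in kb (horizontal axis) and authors' score (vertical axis, its own scale per list). Red marks peaks among the 3254 highest scores of their list, and the lowest panel shows genes and sites of 3 E-box sequences, red where within 50 bp of an IDR summit. The same region about 3.6 to 4.7 kb upstream is highest in all 3 lists.

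The peak assigned to tbx-37 (WBGene00006556, chrIII:11224808-11227125, minus strand) lay at the far edge of its window. Its summit at 11236982, 9857 bp upstream of the start, had a score of 41.7 and rank 2445. The genes elo-8, Y47D3A.34 and Y47D3A.14 lie between it and tbx-37. The nearest start was that of Y47D3A.14, 114 bp away, and the next that of aakb-2, an AMP-activated kinase beta subunit gene, 161 bp away. These 2 genes start 275 bp apart and run in opposite directions. The summit fell in the windows of 6 protein-coding genes. Replicate 2 listed the peak at the same base (score 39.96, rank 2238), and replicate 1 listed no overlapping peak. Of all IDR peaks, 16.8% had no overlapping peak in replicate 1. The remaining 6 pooled summits in the tbx-37 window had scores between 8.65 and 11.9, and the only one within 2000 bp of its start was 1118 bp upstream (score 8.70, rank 21315).

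The other paralog, tbx-38 (WBGene00006557, chrIII:11784082-11786061, minus strand), had no IDR summit within 37416 bp of its start. Its window held 2 pooled relaxed summits. The stronger, 6693 bp upstream (11792754, intergenic, score 12.2, rank 12163), was 28 bp from a transfer RNA gene (WBGene00014264, chrIII:11792782-11792853, plus strand) and was listed at the same base in replicate 2 (rank 8942) but not in replicate 1. The nearest protein-coding start to this stronger summit was that of C24H11.2, 409 bp away. The weaker lay 2635 bp downstream of the tbx-38 start, in a coding exon of srd-74 (score 7.89, rank 24664). Words of 31 bases that occur once in the genome made up 92.0% of the tbx-37 gene and 94.5% of tbx-38. Over the whole windows the shares were 94.6% for tbx-37 and 69.4% for tbx-38, against 97.9% to 99.4% for the other members. The tbx-38 window was the least unique of the 8, so reads there could be harder to place, and the part this played in its low peak count was not tested. The windows of tbx-7 (97.9% unique) and tbx-11 (98.0%) also held 2 pooled summits each.

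The genes tbx-8 (WBGene00006545, chrIII:10347349-10349740, plus strand) and tbx-9 (WBGene00006546, chrIII:10340006-10341858, minus strand) face away from each other across 5490 bp, and shared their strongest relaxed peak. Its summit at 10344685 was near the middle, 2664 bp upstream of tbx-8 and 2827 bp upstream of tbx-9. In the pooled list it had a score of 19.0 and rank 6060, below the IDR threshold. The replicates differed at this site. In replicate 1 it was strong, with a score of 9.03 and rank 1552 of 28959, and in replicate 2 it was weak, with a score of 6.83 and rank 20333 of 30000. The pooled summit with 50 bases on each side (chrIII:10344635-10344735, plus strand) is shown because this is the strongest site between 2 genes known for muscle and epidermis. It contains no E-box of any sequence.

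tbx-8 and tbx-9, shared relaxed summit: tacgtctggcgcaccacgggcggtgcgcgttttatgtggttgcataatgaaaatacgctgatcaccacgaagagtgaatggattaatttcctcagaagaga

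Also listed in both replicates were relaxed peaks nearer the starts in the same stretch. One was 904 bp upstream of tbx-8 (score 13.4, rank 10339) and one 186 bp upstream of tbx-9 (score 8.69, rank 21341). The peak near tbx-9 had its summit at the same base in replicate 2, where it was the strongest peak of both windows (score 9.62, rank 12574). The overlapping peak of replicate 1 had its summit 266 bp away, in a tbx-9 coding exon 80 bp downstream of the start (rank 14727). The nearest IDR summit to both genes was at 10334118 (score 79.9), 100 bp upstream of jmjd-4. It lay 13231 bp upstream of the tbx-8 start and 7740 bp downstream of the tbx-9 start.

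The genes tbx-7 (WBGene00006544, chrIII:6024958-6028532, minus strand) and tbx-11 (WBGene00006547, chrIII:6045615-6046981, minus strand) are 17082 bp apart and lay in a stretch with no IDR summit. The nearest were at 5989488 (score 46.8), which is 39044 bp downstream of the tbx-7 start, and at 6079107 (score 147.9), which is 32126 bp upstream of the tbx-11 start. Around tbx-7 the strongest pooled peak was 3799 bp upstream (score 16.3, rank 7517), with the start of ZK328.6 nearer, 1748 bp away. It had its summit at the same base in replicate 2 (score 19.5, rank 4943) and no counterpart in replicate 1. Around tbx-11 it was 4217 bp upstream, in a coding exon of F40H6.5 (score 15.3, rank 8328). This peak was listed in both replicates, at rank 23516 in replicate 1 and 11919 in replicate 2. The other pooled summit of tbx-11 was intergenic, 1019 bp upstream (score 11.3, rank 13980), with a CACCTG within 50 bp. It overlapped the strongest replicate 1 peak of the window (906 bp upstream, rank 3931) and none in replicate 2. The window of the peak 4217 bp upstream (chrIII:6051148-6051248, plus strand) is shown since it alone, among the strongest peaks of the 6 members without an IDR summit, held an E-box. The site, CAGTTG (the reverse complement of CAACTG, in capitals), lay 4 bp from the summit.

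tbx-11, strongest relaxed summit: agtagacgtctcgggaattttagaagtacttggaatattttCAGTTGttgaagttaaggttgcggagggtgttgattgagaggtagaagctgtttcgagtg

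The gene mab-9 (WBGene00003106, chrII:516024-521635, plus strand) had 4 pooled relaxed summits and no IDR summit in its window. The strongest was 8417 bp upstream (score 12.2, rank 12225), with the start of WBGene00005324 nearer, 1593 bp away. It was listed in both replicates, at rank 21986 in replicate 1 and 7298 in replicate 2. The only one near the start was in a mab-9 intron, 334 bp downstream (score 9.94, rank 17198), with a counterpart in replicate 2 (rank 12712) and none in replicate 1. An IDR peak with a score of 154.7 (rank 184) lay 10557 bp downstream of the mab-9 start, in the 5′ UTR of lgc-34 and 7 bp from that gene's start. It was past the end of the mab-9 window.

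**Figure D3:**
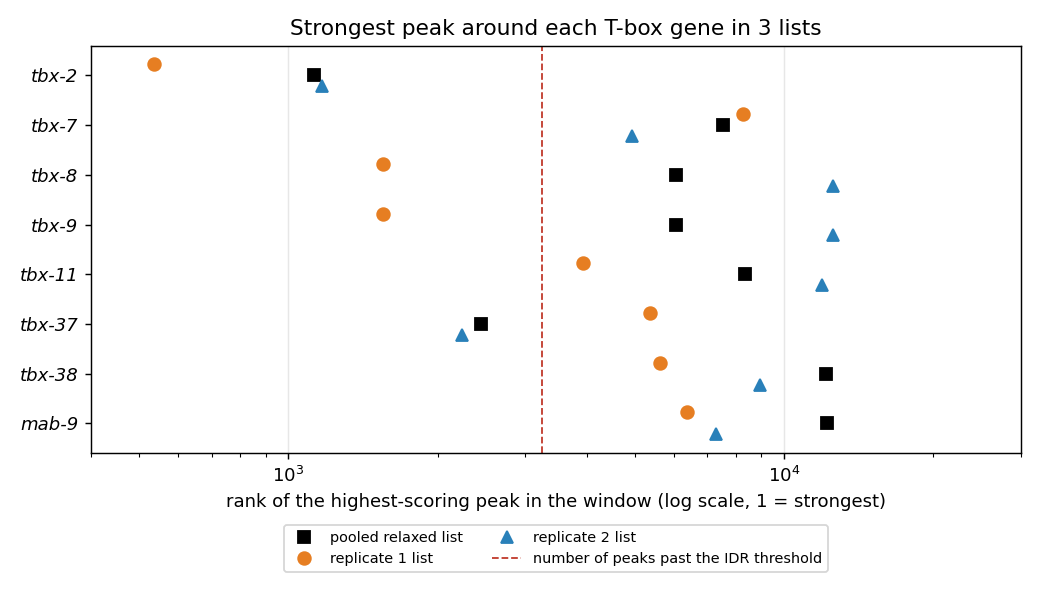
Rank of the highest-scoring peak in the window of each T-box gene, in the pooled (squares), replicate 1 (circles) and replicate 2 (triangles) relaxed lists. The horizontal axis is logarithmic and 1 is the strongest; the dashed line marks rank 3254, the size of the IDR list. The lists differ in length. Only tbx-2 is left of the line in all 3, tbx-8 and tbx-9 are left of it in replicate 1 alone, and tbx-37 in the pooled and replicate 2 lists.

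Set in order by their strongest pooled peak, the members were tbx-2 (rank 1125), tbx-37 (2445), tbx-8 and tbx-9 (6060, the same peak), tbx-7 (7517), tbx-11 (8328), tbx-38 (12163) and mab-9 (12225). Of all protein-coding genes, 13.7% had a peak in their window at least as strong as that of tbx-2, 27.3% as that of tbx-37 and 51.004% as that of tbx-8 and tbx-9. For the others the share was 57.3% to 72.7%. The order changed with the replicate. In replicate 1 alone, tbx-2 (rank 536) was followed by tbx-8 and tbx-9 (1552), tbx-11 (3931) and tbx-37 (5357). In replicate 2 alone, tbx-2 (1170) was followed by tbx-37 (2238), tbx-7 (4943) and mab-9 (7298), with tbx-8 and tbx-9 last (12574). The place of tbx-2 at the head was common to the 3 lists, and the order of the rest was not fixed by these data.

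Distances to the IDR list also put tbx-2 first, but the order of the rest differed from that by strongest pooled peak. The start of tbx-2 was 3648 bp from an IDR summit, that of tbx-9 7740 bp, tbx-37 9857 bp, mab-9 10557 bp and tbx-8 13231 bp. For tbx-11 the distance was 32126 bp, for tbx-38 37416 bp and for tbx-7 39044 bp. The median over the 8 was 11894 bp, against 13491 bp over all protein-coding genes, whose quartiles were 4744 and 30212 bp.

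**Figure D4:**
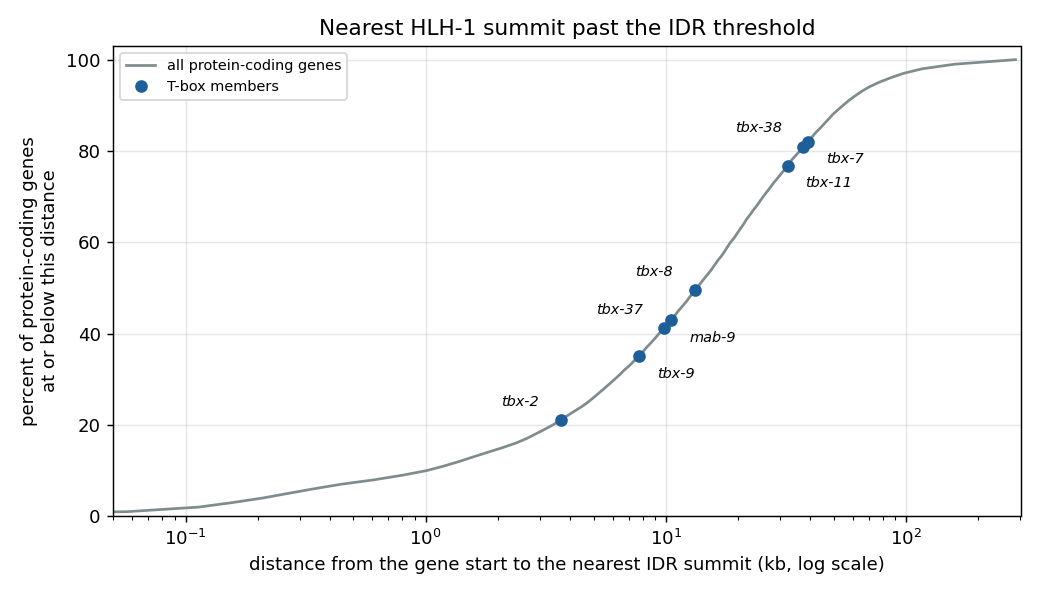
Distance from the gene start to the nearest IDR summit in kb (logarithmic horizontal axis) and the percentage of protein-coding genes at or below that distance (vertical axis). The grey line is all protein-coding genes and the points are the 8 T-box genes placed on it. They run along the curve from 3648 bp for tbx-2 to 39044 bp for tbx-7.

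Relaxed peaks were denser around the 8 genes than in the genome as a whole, and the tbx-2 window alone held 14 of the 36 distinct summits. The density was 0.337 pooled summits per kb over the windows and 0.246 without tbx-2, against 0.253 in the genome. The members had a median of 4 pooled summits per window and all protein-coding genes a median of 3. A pooled relaxed summit near the start (2000 bp upstream to 500 bp downstream) was present for 6 of the 8, the exceptions being tbx-7 and tbx-38, and for 51.5% of all protein-coding genes. Of the 33 distinct pooled summits in the windows that were below the IDR threshold, 14 overlapped a peak in both replicates (42.4%), against 30.6% of the 22067 such peaks in the genome. Many of these 14 were in the tbx-2 window, and the share without tbx-2 was not computed, so the 42.4% is not a result about the members as a set. One of them, 4675 bp upstream of tbx-2, overlapped the same replicate peaks (ranks 536 and 1170) as the IDR peak beside it. These lists hold background by design, so a relaxed peak is not counted as binding here.

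Few sites of 3 E-box sequences lay within 50 bp of an IDR summit, in the windows (2 of 118) as in the genome (1532 of 104489). The 3 E-box sequences counted had together 110.6 sites per 100 kb of window, against 104.2 in the genome. By sequence the density was 14.99 per 100 kb for CAGCTG, against 20.4 in the genome, 57.2 against 57.7 for CAACTG and 38.4 against 26.04 for CACCTG. In the windows CAGCTG occurred 16 times, CAACTG 61 times and CACCTG 41 times in either orientation. Within 50 bp of an IDR summit were 1 of the CAGCTG sites, at tbx-37, none of the CAACTG sites and 1 of the CACCTG sites, at tbx-2. In the genome such sites made up 2.61% of 20487 CAGCTG, 1.16% of 57889 CAACTG and 1.25% of 26113 CACCTG sites. By member, the 3 sequences together had from 13 sites (tbx-37) to 21 sites (tbx-11), and tbx-2 had 20. The tbx-11 window held only 2 pooled summits and that of tbx-2 14. At least 1 of the 3 was present at 2 of the 3 IDR summits and at 38.8% of all IDR summits. Among summits below the threshold it was present at 5 of 33 in the windows and at 13.4% of all.

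Other T-box genes also had IDR summits in few windows. A list of 14 further symbols matched 14 genes, since tbx-30 names 2 genes and tbx-42 matched none. Of these, 2 had an IDR summit in the window (14.3%), beside 25% of the 8 members and 34.3% of all protein-coding genes, and none had one near the start. The summit of sea-1, which acts in counting sex chromosomes against autosomes, was 9390 bp upstream (score 97.8, rank 577) and nearer to the start of F19B10.1. The higher-scoring of 2 summits of tbx-41 was 8922 bp upstream (score 50.98, rank 1895) and nearest to the start of ceh-39. No summit was found in the windows of mls-1, which directs uterine muscle fate, or tbx-35, which specifies the MS mesoderm lineage, and the nearest were 38220 and 13181 bp from their starts. Over all 22 T-box genes, 4 had an IDR summit in the window and none near the start, where 34.3% and 12.8% of all protein-coding genes had one. The 2 tbx-30 genes and tbx-39 had no pooled relaxed summit in their windows either. How unique the sequence of these further windows is was not computed.

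Genes reported as regulators, partners or targets of the members had IDR summits at shares not far from the background. Of 22 such genes matched (elt-5 matched no symbol), 9 had an IDR summit in the window (40.9%) and 2 near the start (9.09%), set against the same 34.3% and 12.8%. The 2 were unc-37, the Groucho-type co-repressor gene (283 bp upstream, score 70.5, rank 1094 in the IDR list, 848 in replicate 1 and 1033 in replicate 2), and pop-1, the TCF gene of Wnt signalling, with 2 summits (1234 bp upstream, score 39.6, rank 2589 in the IDR list, 2502 in replicate 1 and 3252 in replicate 2; and 128 bp upstream, score 34.6, rank 3040). The strongest summits in the windows of lag-1, the DNA-binding factor of Notch signalling (2363 bp downstream, score 61.1, with a weaker one 1827 bp downstream), and egl-4, a cGMP-dependent kinase gene (1454 bp downstream), had no nearer start than those of the 2 genes themselves. For pha-4, hlh-6, skn-1, ubc-9 and gei-17 another start was nearer to the strongest summit in the window. The genes glp-1, pal-1, vab-7 and elt-1, upstream or downstream of tbx-8, tbx-9, tbx-37 and tbx-38 in the embryo, had none.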

How the data were processed

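HLH-1-eGFP ChIP-seq peak lists from 2 biological replicates of OP64 embryos were used. Per the deposited manifest, relaxed lists were derived from each replicate's alignments and from both together, and the IDR list from these; no source used here gives the aligner, caller, threshold, depth or control processing. Deposited values, made by the authors, are a score, a −log10 q-value (not used for ranking) and a summit offset per peak. Lists on ce10 were not used. The columns hold no unmapped samples.

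Genes were taken from Ensembl release 115 (WBcel235, the ce11 assembly) and sequence from RefSeq's copy. The start is the most 5′ annotated base, and peaks were matched at 1 bp of overlap. Motifs were read on both strands within 50 bp of a summit. Python 3.11.15, pandas 2.3.3 and numpy 2.4.6 were used, and window counting was tested on simulated summits. Words of 31 bases stand in for mappability, as the read length is not given. The members and lists were chosen with earlier results of these data known, and no test was made. Genes named are the members, the genes that hold or start nearest to their peaks, and the list genes with a summit near the start; others of the lists were named after their values were seen. Alternatives were other windows, peak lists, matches and motif widths.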

Additional observations from a re-analysis of the deposited data

How the results depend on the processing

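The count of 2 members with an IDR summit in the window fell to 1 (tbx-2) with a window of 5 kb upstream and 1 kb past the end (23.8% of all protein-coding genes), with the higher-scoring 1627 IDR peaks, with summits assigned to the nearest start alone, and with IDR peaks that have a counterpart in both replicates, a setting chosen after seeing the data. It was 0 for the gene with 2 kb upstream and 8 with the whole pooled relaxed list. All 8 had at least 2 summits of that list in the window, as had 78.2% of all protein-coding genes. The share of genes with at least 1, the rule for this count, is no lower and was not computed. Where no share of all protein-coding genes is given beside a count, that share was not computed, and the count is not a result about the members. The 3 distinct summits became 5 with 20 kb upstream, where tbx-8 joined as the third member (47.6% of all protein-coding genes), 0 for the gene with 2 kb upstream, and 36 with the relaxed list. With either replicate left out (the 3254 highest-scoring peaks of the other), the members numbered 2 to 3 (34.7% of all protein-coding genes without replicate 1 and 34.2% without replicate 2) and the summits 3 to 4: without replicate 2, tbx-8 and tbx-9 had a top peak and tbx-37 none. Near the start the count was 0 to 1 with a replicate left out, the 1 being tbx-2 without replicate 2 (1447 bp upstream), and 1 with 5 kb upstream (19.7% of all protein-coding genes). Of the 3 IDR summits, 2 had a counterpart in both replicates; 1 did when 50% of each peak had to overlap and 1 when summits had to be within 100 bp. The 2 summits with an E-box of the 3 sequences became 0 in 51 bp, and the flanks 500 bp to the left and to the right held 0 and 0. No paired analysis was possible because there is 1 group and no contrast. Depth limits all absences: it is unknown, and the relaxed lists hold background.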

Other observations

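In the stretch from 250 bp before to 50 bp after the start, the E-box CACGTG was present for 4 of the 8 T-box genes, tbx-2, tbx-11, tbx-37 and tbx-38, and for 5.84% of all protein-coding genes. CAAGTG was present for 4 as well (tbx-2, tbx-9, tbx-11 and tbx-38), against 12.4%. Both were noticed among 13 motifs searched, with no test, and no IDR summit lies in any of these stretches. The single CAGCTG in the windows of tbx-8 and tbx-9 lies in this stretch of tbx-8 and is not within 50 bp of a relaxed summit.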
